A study of Citrus sinensis with 36 samples.

Results

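Peel of Taoye Orange was compared here with peel of the other 2 common sweet orange (CO) varieties of the study, Jincheng Orange and Xianfeng Orange. The comparison used 9 of the 36 RNA-seq libraries of the series, 3 per variety. A gene was kept when Taoye differed from Jincheng and from Xianfeng in the same direction, each by at least 2-fold and at an adjusted p under 0.05. Of 17708 genes tested, 520 were kept, 279 of them higher and 241 lower in Taoye. The study set mature COs beside Valencia oranges (VO), both of the species Citrus sinensis. Peel and pulp were taken from fruits harvested at 220 days after flowering (DAF), when the CO fruits were mature and the fruits of Cutter, Delta and Rohde Red Valencia were still colouring. All trees grew in a single nursery, no treatment is named, and peel and pulp were parted by hand. Taoye is described by the study as a seedling selection of low acidity that ripens slightly earlier than the other COs, so that variety and ripening date cannot be told apart in any comparison below. Each variety is a single genotype, and its 3 libraries are samples of that genotype. The sample records give 3 trees per replicate and the methods of the study give 2. The p-values below therefore rest on the spread among the 3 libraries within each variety and not on a spread between genotypes.

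Citrus peel holds an outer coloured layer, the flavedo, and a white spongy layer, the albedo. The flavedo carries the cuticle, the oil glands that store monoterpenes, and plastids that turn from chloroplasts into carotenoid-rich chromoplasts as the fruit colours. Vascular strands run through the albedo, where walls of xylem cells are thickened with cellulose and lignin. As in other plant surfaces, genes for defence proteins and lipid transfer proteins are active in peel. In bulk RNA of this kind, fewer cells of a type and less RNA per cell cannot be told apart.

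Expression was given as FPKM, a fragment count scaled for the length of the gene and for the mapped fragments of the library. The CO peel libraries held 15.5 M to 17.7 M mapped fragments, and between libraries of a variety the variance was 2.32 to 2.82 times that of counting alone for genes with at least 50 fragments. The tissue given in the labels was checked against genes of peel and pulp. The 50 genes that marked peel in the other varieties summed to 3040 to 3074 FPKM in Taoye peel, below Jincheng peel (3624 to 3736 FPKM), Xianfeng peel (3400 to 3510 FPKM) and VO peel, and to 146 to 173 FPKM in Taoye pulp. The 50 pulp genes summed to 806 to 828 FPKM in Taoye peel, 806 to 828 FPKM in Jincheng peel and 1659 to 1683 FPKM in Xianfeng peel. The genes were chosen in the other varieties, without Taoye, so a lower sum in Taoye can follow from the choice alone. In pulp, too, the 50 pulp genes summed lowest in Taoye, with 7860 to 8211 FPKM. Pulp libraries of the other varieties ranged from 10785 FPKM (Rohde Red Valencia) to 14791 FPKM (Cutter Valencia). Nothing is therefore read from the lower sum of peel genes in Taoye peel. The part of these gene sets in the results below was not tested. In the sequencing summary of the study, Taoye peel had a larger share of mapped reads and a smaller share of intergenic reads than Jincheng and Xianfeng peel, and the part of this difference was not tested either. Seed storage markers summed to 24.9 to 27.1 FPKM in Taoye, 26.5 to 27.7 FPKM in Jincheng and 22.3 to 28.2 FPKM in Xianfeng. Of the 6 seed markers tested, 1 was kept as higher, against 1.58% of all genes, and none as lower by limma (1 higher and 1 lower at an unadjusted p under 0.05). This was a legumin gene at 0.903 FPKM in Taoye, 0 FPKM in Jincheng and 0.178 FPKM in Xianfeng, too low to show in the sum. Epidermis and cuticle markers gave 213 to 217 FPKM in Taoye, above Jincheng (193 to 203 FPKM) and below Xianfeng (272 to 284 FPKM). Of the 23 markers of epidermis and cuticle tested, 1 was kept as lower in Taoye, against 1.36% of all genes, and nothing is read from a count of 1.

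More genes were called between Taoye and each of the other COs than between Jincheng and Xianfeng. Differences were tested with limma on log2(FPKM + 0.1), so fold changes of genes near 0 are understated. Errors after ± are SDs over 3 libraries for levels and SEs for log2 fold changes, and adjusted p-values are those of limma. Against Jincheng, 901 genes were called (5.09% of those tested), 447 higher (2.52%) and 454 lower (2.56%) in Taoye. Against Xianfeng, 890 genes were called (5.03%), 431 higher (2.43%) and 459 lower (2.59%) in Taoye. Jincheng and Xianfeng differed in 273 genes (1.54%). The 520 kept genes made up 2.94% of those tested, 1.58% higher and 1.36% lower. Taken in the same way, 88 genes (0.497%) set Jincheng apart from the other COs and 125 genes (0.706%) set Xianfeng apart. These counts share libraries, and the difference between them was not tested. Adding 1 FPKM in place of 0.1 before the logarithm left 177 kept genes, and dropping the 2-fold limit gave 3676. For 278 of the 279 higher genes the 3 Taoye libraries all lay above the other 6, as they did for 15.1% of all genes tested. For 231 of the 241 lower genes they all lay below, as for 14.4% of all genes. The rule chose these genes on the same libraries, so their separation describes the choice and was not tested.

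**Figure D1:**
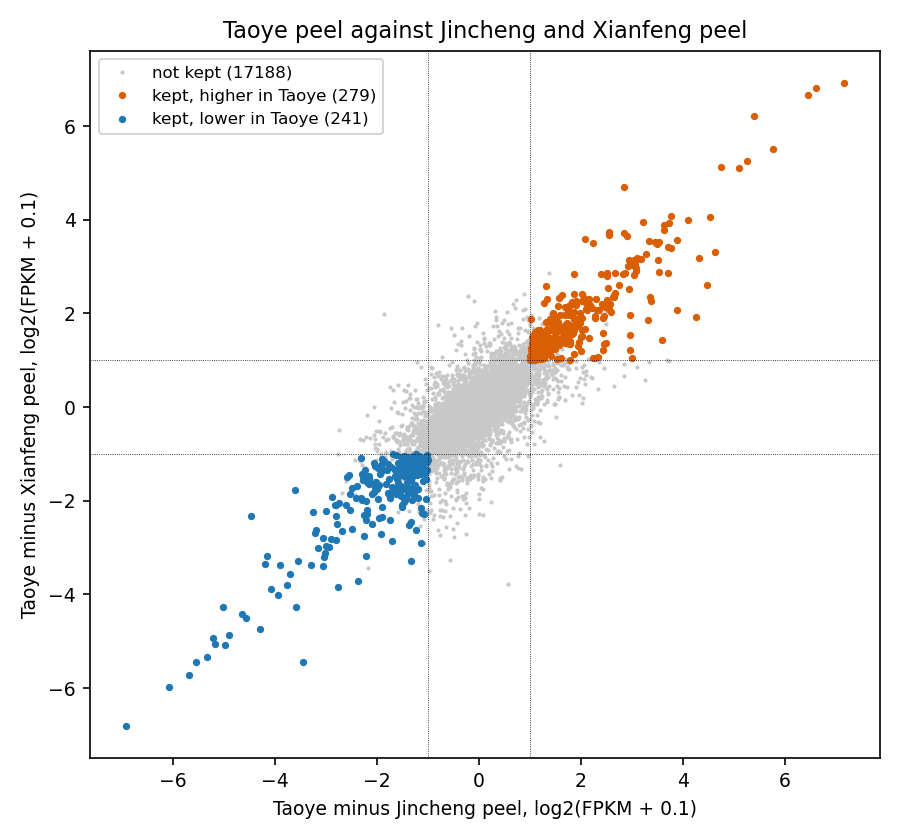
Each point is a gene tested in peel, with its log2 fold change of Taoye against Jincheng on the x axis and against Xianfeng on the y axis. Colours mark the 279 kept genes that were higher and the 241 that were lower in Taoye, which fill the upper right and lower left corners by the rule that chose them.

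The smaller of the 2 fold changes of a kept gene had a median of 1.55 on the log2 scale among the higher genes, with a highest value of 6.92. Among the lower genes its median was -1.42, and the strongest value was 6.80 in size. It reached a size of 2 in 83 higher and 56 lower genes and a size of 4 in 9 and 13. The bHLH92 transcription factor gene Cs9g08460 lay just inside the limit, with 4.57 FPKM in Taoye, 1.27 FPKM in Jincheng and 2.23 FPKM in Xianfeng. The tryptophan synthase gene Cs2g07700 lay just outside it, with 9.26, 0.638 and 4.64 FPKM in the same order. Kept genes were low in level, with a median of 1.06 FPKM over the 9 libraries against 5.35 FPKM for all genes tested. A description was lacking for 8.85% of the kept genes and 3.83% of the genes tested. Genes on scaffolds without a chromosome made up 20.8% of the kept and 15.5% of the tested genes.

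The largest differences were close to the presence or absence of a transcript, and several of these genes encode products without a known function. Among the higher genes, Cs9g17790, an uncharacterized gene with an ID on chromosome 9, had 14.2, 14.1 and 14.0 FPKM in Taoye, 0, 0 and 0 FPKM in Jincheng and 0, 0.0610 and 0 FPKM in Xianfeng. Its neighbour Cs9g17780, which matches ESD4, a protease of the small ubiquitin-like modifier SUMO known from Arabidopsis, had 5.06, 5.37 and 5.55 FPKM in Taoye, 0, 0 and 0 FPKM in Jincheng and 0.0183, 0.0389 and 0 FPKM in Xianfeng. Both were near 0 in all 6 other libraries. Against the floor of 3 fragments in a library, the difference was at least 77.2-fold for Cs9g17790 and at least 91.2-fold for Cs9g17780, and the adjusted p of each was at most 5.7e-08. A second neighbouring pair on chromosome 9 had no named product. Cs9g09220 was measured at 11.8, 11.3 and 10.6 FPKM in Taoye, 0.0544, 0 and 0 FPKM in Jincheng and 0, 0 and 0 FPKM in Xianfeng. For Cs9g09230 the levels were 10.7, 10.6 and 11.5 FPKM in Taoye, 0.0285, 0 and 0.0558 FPKM in Jincheng and 0, 0.0289 and 0 FPKM in Xianfeng. The pair was at least 136-fold (Cs9g09220) and 127-fold (Cs9g09230) higher in Taoye than the floor of the other libraries.

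Other genes of this kind included a transposase-like gene and a carboxylesterase. Cs1g02260, a relative of the maize AC transposase, had 3.77, 3.66 and 3.78 FPKM in the Taoye libraries and no fragment in the other 6, a difference of at least 27.8-fold. No fragment of it was found in VO peel. The uncharacterized gene orange1.1t01630 gave 25.5, 26.1 and 24.7 FPKM in Taoye, 0.374, 0.535 and 0.641 FPKM in Jincheng and 0.623, 0.189 and 0.0904 FPKM in Xianfeng. The carboxylesterase 12 gene Cs5g34280, of a family of enzymes that split esters, gave 11.5, 10.3 and 8.77 FPKM in Taoye, 0.528, 0.0628 and 0.452 FPKM in Jincheng and 0.313, 0.267 and 0.0637 FPKM in Xianfeng, with log2 fold changes of 4.73 ± 0.49 against Jincheng and 5.13 ± 0.49 against Xianfeng (SE, n = 3 libraries per variety, adjusted p at most 3.3e-05). Cs6g03215, a gene without a description, gave 13.4 ± 0.195 FPKM in Taoye, 0.525 ± 0.283 FPKM in Jincheng and 0.737 ± 0.265 FPKM in Xianfeng. In each of these genes every Taoye library was far above the other 6. In VO peel orange1.1t01630 and Cs6g03215 had means of at most 0.483 FPKM, and Cs5g34280 was at 0.832 ± 0.105 FPKM in Cutter Valencia, 1.00 ± 0.0173 FPKM in Delta Valencia and 1.21 ± 0.534 FPKM in Rohde Red Valencia.

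Among the lower genes, Cs2g14575 and Cs2g20185 had no fragment in any Taoye peel library, and neither has a description. Cs2g14575 was at 11.0, 11.7 and 13.2 FPKM in Jincheng and 10.1, 10.8 and 12.4 FPKM in Xianfeng, at least 101-fold above the floor of the Taoye libraries. Cs2g20185 was at 6.69, 6.31 and 6.83 FPKM in Jincheng and 5.74, 6.52 and 6.47 FPKM in Xianfeng, at least 56.6-fold above it. Both genes were also near 0 in the peel of all 3 VO varieties, with means of at most 0.0231 FPKM, so they set Jincheng and Xianfeng apart from the rest. Other genes were near 0 in Taoye alone among the 6 varieties. Cs7g15150, which matches a ribonuclease H-like protein of the kind found in retroelements, had 0, 0.0490 and 0 FPKM in Taoye, 5.4, 5.89 and 5.96 FPKM in Jincheng and 5.62, 6.77 and 5.33 FPKM in Xianfeng. It was at least 112-fold lower in Taoye, while VO peel held 5.31 ± 0.170 FPKM in Cutter Valencia, 5.52 ± 0.439 FPKM in Delta Valencia and 5.85 ± 0.905 FPKM in Rohde Red Valencia. Cs6g06760 matches RICESLEEPER 2, a protein derived from a transposase and known from rice, and had 0.108, 0.275 and 0.226 FPKM in Taoye, 9.16, 8.36 and 8.57 FPKM in Jincheng and 8.26, 8.76 and 8.28 FPKM in Xianfeng. In VO peel Cs6g06760 stood at 9.02 ± 0.434 FPKM in Cutter Valencia, 8.53 ± 0.485 FPKM in Delta Valencia and 9.13 ± 0.598 FPKM in Rohde Red Valencia, close to the other COs.

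The O-fucosyltransferase gene Cs5g18720, of a family that transfers fucose to proteins, had 0.0230, 0 and 0.0263 FPKM in Taoye, 2.74, 3.63 and 2.23 FPKM in Jincheng and 2.19, 2.59 and 2.38 FPKM in Xianfeng, at least 30.3-fold lower in Taoye. For orange1.1t03560, which has no description, the levels were 0.0543, 0 and 0.0620 FPKM in Taoye, 6.23, 6.37 and 6.01 FPKM in Jincheng and 4.85, 7.51 and 5.28 FPKM in Xianfeng, at least 63.2-fold lower. The Taoye libraries did not overlap the others in either gene. YUCCA5 (Cs5g34410) belongs to the flavin monooxygenases that complete the synthesis of the auxin indole-3-acetic acid in Arabidopsis. Its levels were 0, 0 and 0.0409 FPKM in Taoye, 1.05, 1.19 and 1.14 FPKM in Jincheng and 5.21, 4.97 and 4.24 FPKM in Xianfeng, so that Jincheng lay between Taoye and Xianfeng. The difference from Jincheng was at least 9.18-fold, and VO peel held 1.19 ± 0.204 FPKM in Cutter Valencia, 1.14 ± 0.360 FPKM in Delta Valencia and 1.04 ± 0.193 FPKM in Rohde Red Valencia. Over all kept genes with at least 1 FPKM on the higher side, 25 were at or under 3 fragments in every Taoye peel library and 12 were so in every Jincheng and Xianfeng peel library. Of the 25, 20 were also at this floor in every Taoye pulp library, and 17 held at least 1 FPKM in all 3 VO varieties. Some of the 20, such as YUCCA5, were at the floor in every Jincheng and Xianfeng pulp library as well, so pulp does not set Taoye apart in them. Of the 12, 10 were at the floor in all Jincheng and Xianfeng pulp libraries, and 6 were at the floor in VO peel. Some of the 10 had no fragment in Taoye pulp either.

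**Figure D2:**
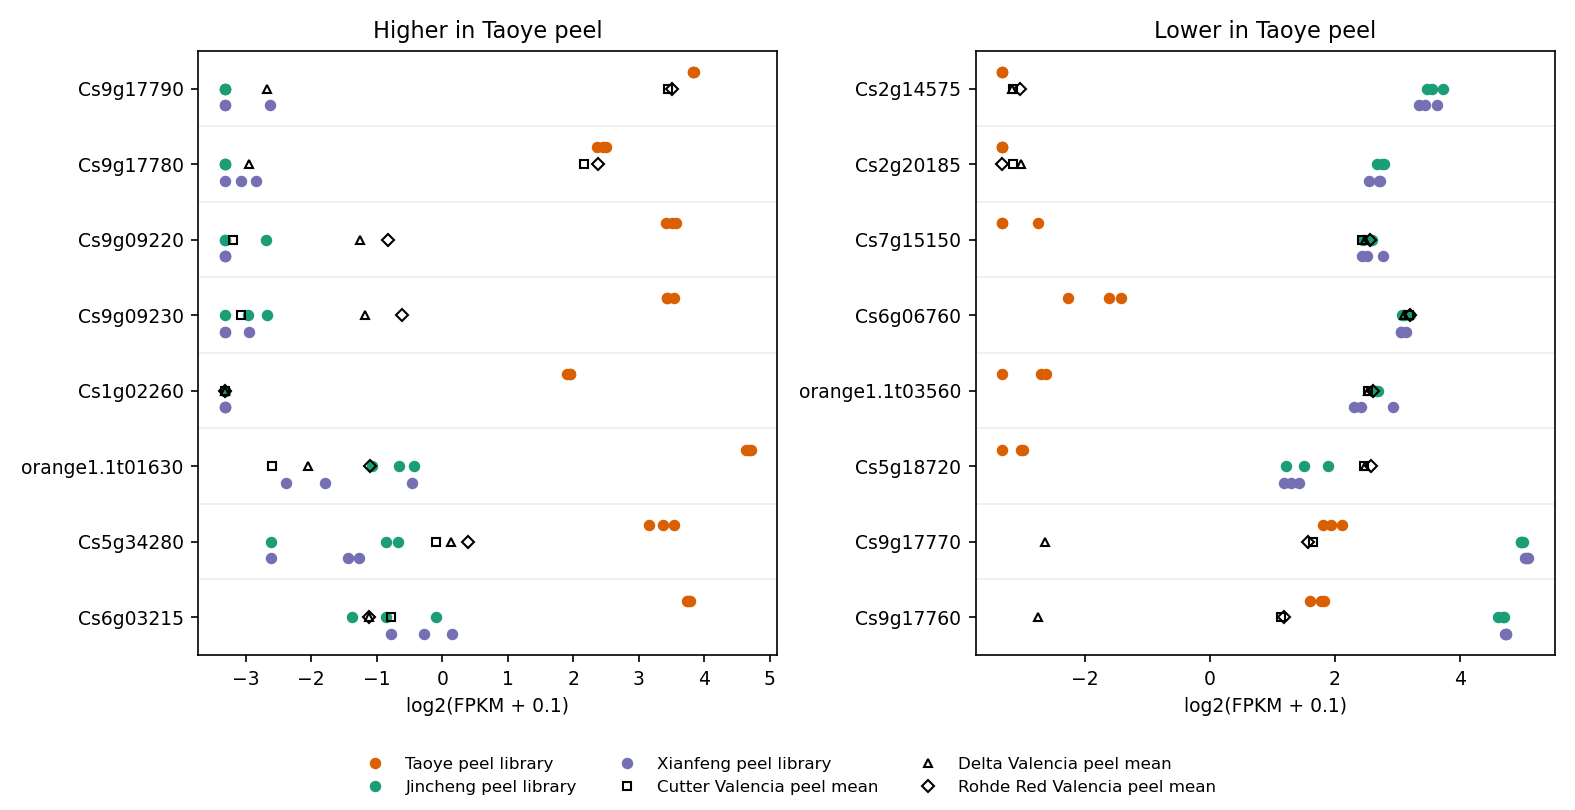
Levels of 16 genes in single peel libraries are shown as log2(FPKM + 0.1), 8 genes that were higher and 8 that were lower in Taoye. Filled symbols are the 9 libraries of Taoye, Jincheng and Xianfeng, and open symbols are the means of the 3 VO varieties, which lie near Taoye for some genes and near the other COs for others.

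Kept genes also stood side by side in the order of the gene IDs. Of 412 kept genes with an ID on a chromosome, 54 (13.1%) formed 24 runs of neighbours, 20 of them in a single direction and 4 mixed. The share that any set of this size would have in runs was not computed, so nothing is read from the 13.1%. The longest run held 4 genes and joined Cs9g17780 and Cs9g17790 to the pair Cs9g17760 and Cs9g17770, which moved the other way. Cs9g17760, also a match to the SUMO protease ESD4, had 3.35, 2.95 and 3.45 FPKM in Taoye, 24.4, 25.8 and 26.2 FPKM in Jincheng and 26.8, 26.3 and 26.7 FPKM in Xianfeng. Cs9g17770, a partial gene without a known product, had 3.76, 3.43 and 4.25 FPKM in Taoye, 31.5, 31.5 and 32.1 FPKM in Jincheng and 32.8, 34.2 and 33.8 FPKM in Xianfeng. Taoye was lower in this pair with log2 fold changes of -2.94 ± 0.06 against Jincheng and -3.0 ± 0.06 against Xianfeng (SE, adjusted p at most 1.8e-10) for Cs9g17760 and with log2 fold changes of -3.03 ± 0.06 against Jincheng and -3.11 ± 0.06 against Xianfeng (SE, adjusted p at most 3.1e-10) for Cs9g17770. Peel of Cutter and Rohde Red Valencia resembled Taoye in all 4 genes, with 2.10 and 2.18 FPKM of Cs9g17760 and 10.8 and 11.3 FPKM of Cs9g17790. In Delta Valencia all 4 genes were under 0.1 FPKM. As Cs9g17760 and Cs9g17780 match the same protein, reads shared between such copies could be assigned to either, and the split of counts between these neighbours is uncertain.

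A run on chromosome 7 held 3 genes, of which 2 match CSC1, a calcium-permeable channel opened by osmotic stress in Arabidopsis. Cs7g02640 had no fragment in the Taoye peel libraries, 1.02, 1.20 and 1.59 FPKM in Jincheng and 1.49, 1.40 and 1.04 FPKM in Xianfeng, at least 6.94-fold lower in Taoye. Its neighbours Cs7g02635 and Cs7g02645 had 0.147 and 0 FPKM in Taoye, against 1.08 and 0.525 FPKM in Jincheng. The 3 IDs follow each other directly and 2 share a description, and whether they belong to a single gene could not be told here. On chromosome 9, 4.10% of the genes tested were kept, the largest share of the 9 chromosomes, and 2.15% were kept on chromosome 6, the smallest.

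A subset of the genes of the photosynthetic apparatus was higher in Taoye peel. Antenna proteins bind chlorophyll and pass light energy to the reaction centres of photosystems I and II. Of 44 photosynthesis genes tested, 9 were kept as higher (20.5%, against 1.58% of all genes) and none as lower by limma, with 9 and 0 by limma voom. At an unadjusted p under 0.05 against both varieties and with no fold limit, 19 were higher and 1 was lower. The median log2 fold change of the list was 0.28 against Jincheng and 0.61 against Xianfeng, with -0.02 and 0.02 for all genes. CP24 (orange1.1t03504), a minor antenna protein of photosystem II, had 2.94, 3.06 and 2.69 FPKM in Taoye, 0.562, 0.788 and 0.906 FPKM in Jincheng and 0.692, 0.502 and 0.415 FPKM in Xianfeng. This gave log2 fold changes of 1.83 ± 0.21 against Jincheng and 2.26 ± 0.21 against Xianfeng (SE, adjusted p at most 6.4e-05). The antenna gene of photosystem I Cs7g27290 had 1.73, 2.20 and 2.24 FPKM in Taoye, 0.378, 0.775 and 0.597 FPKM in Jincheng and 0.746, 0.353 and 0.196 FPKM in Xianfeng. An antenna gene of photosystem II, Cs2g19680, was at 7.79 ± 0.860 FPKM in Taoye, 3.43 ± 0.185 FPKM in Jincheng and 3.17 ± 0.506 FPKM in Xianfeng. The Taoye libraries lay above all others in each of these genes.

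Core subunits of the photosystems showed the same direction. Subunit V of photosystem I (Cs4g07650) was the most abundant of the 9, with 15.9, 12.4 and 14.0 FPKM in Taoye, 6.87, 6.09 and 7.26 FPKM in Jincheng and 5.73, 5.91 and 4.64 FPKM in Xianfeng. Its log2 fold changes of 1.05 ± 0.11 and 1.36 ± 0.11 (SE) lay close to the limit against Jincheng, and fell to 0.98 without Jincheng library 2 and to 0.96 without Taoye library 1. The psbY gene Cs7g09900, of the core of photosystem II, had 2.06 ± 0.458 FPKM in Taoye, 0.526 ± 0.136 FPKM in Jincheng and 0.733 ± 0.190 FPKM in Xianfeng. The oxygen-evolving enhancer protein 3-2 gene Cs2g07330, whose product stabilizes the site of water splitting, had 8.22, 6.04 and 5.98 FPKM in Taoye, 2.60, 1.86 and 2.78 FPKM in Jincheng and 2.31, 1.31 and 1.29 FPKM in Xianfeng. Cs7g09900 and Cs2g07330 were picked after their values were seen. All 9 kept genes were between 1.05 and 1.83 in their smaller log2 fold change. VO peel was higher still in many cases. CP24 was at 12.5 ± 0.632 FPKM in Cutter Valencia, 5.6 ± 0.991 FPKM in Delta Valencia and 10.0 ± 0.485 FPKM in Rohde Red Valencia, and no photosynthesis gene of the 9 was called higher in Taoye than in a VO variety. Taoye was called lower than Cutter Valencia in 8 of the 9, than Rohde Red Valencia in 4 and than Delta Valencia in 1. Summed over the 18 green plastid markers, Taoye held 244 to 246 FPKM, Jincheng 169 to 173, Xianfeng 152 to 167 and the VO varieties 267 to 455, and none of the markers was at 0. Of the 17 markers tested, 5 were kept as higher (against 1.58% of all genes), all among the 9 genes above, so the sum is no separate evidence. Its largest member, the RuBisCO small chain gene Cs4g03580, was not kept (133 FPKM in Taoye, 100 in Jincheng, 109 in Xianfeng). Cs7g31190 was among those that went the other way (4.70, 7.14 and 6.12 FPKM). In pulp the 9 kept photosynthesis genes were all tested and none was kept in either direction by limma (0 higher and 2 lower at an unadjusted p under 0.05). The pulp medians of the list were -0.17 against Jincheng and -0.14 against Xianfeng. With 1 FPKM added in place of 0.1, 2 of the 9 genes remained past the limits.

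Several genes that build the secondary wall of xylem were lower in Taoye peel. Cellulose synthase subunits 4, 7 and 8 form the complexes that lay down cellulose of secondary walls in Arabidopsis, and laccases 4 and 17 polymerize lignin there. Subunit 4 (Cs5g29200) had 0.0603, 0.224 and 0.138 FPKM in Taoye, 1.03, 1.02 and 1.02 FPKM in Jincheng and 0.581, 0.549 and 0.433 FPKM in Xianfeng. Subunit 7 (Cs4g01990) had 0.155, 0.0423 and 0.118 FPKM in Taoye, 0.813, 0.844 and 0.724 FPKM in Jincheng and 0.441, 0.411 and 0.519 FPKM in Xianfeng. Subunit 8 (Cs2g04590) had 0, 0.0696 and 0.0606 FPKM in Taoye, 0.310, 0.603 and 0.549 FPKM in Jincheng and 0.193, 0.229 and 0.288 FPKM in Xianfeng. Each Taoye library lay below all Jincheng and Xianfeng libraries for all 3 subunits, and Xianfeng lay between Taoye and Jincheng. The log2 fold changes were -2.28 ± 0.28 and -1.42 ± 0.28 for subunit 4, -2.16 ± 0.27 and -1.48 ± 0.27 for subunit 7 and -2.03 ± 0.35 and -1.26 ± 0.35 for subunit 8. A second gene described as like subunit 7, Cs9g08750, was far more abundant and was not kept. Its means were 25.3 FPKM in Taoye, 30.7 FPKM in Jincheng and 30.7 FPKM in Xianfeng, with log2 fold changes of -0.28 and -0.28. Subunit 8 lost its call against Xianfeng without Taoye library 1 (adjusted p = 0.0619) and without Xianfeng library 3 (adjusted p = 0.0667). VO peel exceeded all COs, with 1.68 ± 0.196 FPKM in Cutter Valencia, 3.04 ± 0.317 FPKM in Delta Valencia and 1.53 ± 0.0182 FPKM in Rohde Red Valencia for subunit 4. With 1 FPKM added in place of 0.1, the log2 fold changes of the 3 subunits were -0.83, -0.70 and -0.51 against Jincheng and -0.42, -0.40 and -0.25 against Xianfeng, and none of the 3 was called.

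Of 27 laccase and class III peroxidase genes tested, 7 were kept as lower and 4 as higher in Taoye, 40.7% of the list against 2.94% of all genes. The list had medians of -0.41 against Jincheng and -0.56 against Xianfeng. Laccase 17 (Cs6g06880) had 0.104, 0.0227 and 0 FPKM in Taoye, 0.724, 0.869 and 1.03 FPKM in Jincheng and 0.622, 0.355 and 0.497 FPKM in Xianfeng, with log2 fold changes of -2.83 ± 0.33 against Jincheng and -2.10 ± 0.33 against Xianfeng (SE, adjusted p at most 6.5e-04). Laccase 4 (Cs6g07800) had 0.308, 0.0962 and 0.276 FPKM in Taoye, 1.66, 1.18 and 1.31 FPKM in Jincheng and 0.659, 0.626 and 0.789 FPKM in Xianfeng. Both laccases were lowest in Taoye without overlap. Class III peroxidases oxidize phenolic compounds in the wall with hydrogen peroxide. Peroxidase 9 (Cs3g25300) had 0.0966, 0.291 and 0.387 FPKM in Taoye, 2.45, 2.46 and 2.29 FPKM in Jincheng and 2.07, 2.42 and 2.26 FPKM in Xianfeng, with log2 fold changes of -2.90 ± 0.28 against Jincheng and -2.81 ± 0.28 against Xianfeng (SE, adjusted p at most 2.3e-05). Peroxidase 47 (Cs1g19540) gave 1.24 ± 0.291 FPKM in Taoye, 4.06 ± 0.878 FPKM in Jincheng and 4.31 ± 0.0555 FPKM in Xianfeng. Peroxidase 16 (Cs4g03740) gave 2.48 ± 0.234 FPKM in Taoye, 6.32 ± 0.661 FPKM in Jincheng and 8.45 ± 0.720 FPKM in Xianfeng, and in VO peel it was lower still, with 0.580 ± 0.0930 FPKM in Cutter Valencia, 1.30 ± 0.301 FPKM in Delta Valencia and 0.181 ± 0.138 FPKM in Rohde Red Valencia. The 4 higher genes of the list were peroxidases with a smaller log2 fold change of 1.11 to 1.94, and 2 of the list were kept as higher without Taoye library 3. With 1 FPKM added in place of 0.1, 3 genes of the list were kept as lower and 0 as higher, and neither laccase was called. Of the 7 lower genes, 6 were also called lower against each of the 3 VO varieties, as were 49.4% of all kept lower genes.

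The markers of vascular and secondary wall tissue overlap with the genes above, so their values are no separate evidence. They comprise the 3 cellulose synthase subunits, laccase 17 and proteins of the phloem, and summed to 76.5 to 78.1 FPKM in Taoye, 106 to 108 in Jincheng, 102 to 106 in Xianfeng and 98.3 to 108 in VO peel. Of 13 such markers tested, 6 were kept as lower in Taoye and none as higher by limma, against 1.36% and 1.58% of all genes. At an unadjusted p under 0.05, 9 were lower and 1 was higher. Of all 29 in the table, 8 were at 0 in Taoye, 8 in Jincheng and 7 in Xianfeng. Among the lower markers, a gene like PHLOEM PROTEIN 2 (Cs2g10910), a lectin of the phloem, had 12.8, 11.4 and 13.1 FPKM in Taoye, 26.8, 28.6 and 26.0 FPKM in Jincheng and 26.9, 26.6 and 28.0 FPKM in Xianfeng. SIEVE ELEMENT OCCLUSION B-like (Cs3g07110), a protein of the sieve tubes, had 1.5, 1.76 and 1.45 FPKM in Taoye, 4.45, 4.51 and 4.54 FPKM in Jincheng and 6.0, 5.39 and 5.02 FPKM in Xianfeng. Other phloem markers were not kept. Their log2 fold changes were positive for Cs1g21400 (0.48 and 0.50) and Cs3g16270 (0.10 and 0.20). They were negative for Cs2g10930 (-0.57 and -0.40) and Cs7g16020 (-0.06 and -0.07) and mixed for Cs5g11280 (-0.81 and 0.02). A second gene like laccase 17, Cs8g17630 (-1.99 and -0.89), was not kept either. The share of vascular tissue in the dissected peel was not measured, and its part in the lower wall genes was not tested. The 3 kept cellulose synthase genes, the laccases Cs6g06880 and Cs6g07800 and the phloem genes Cs2g10910 and Cs3g07110 were named after their values were seen.

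**Figure D3:**
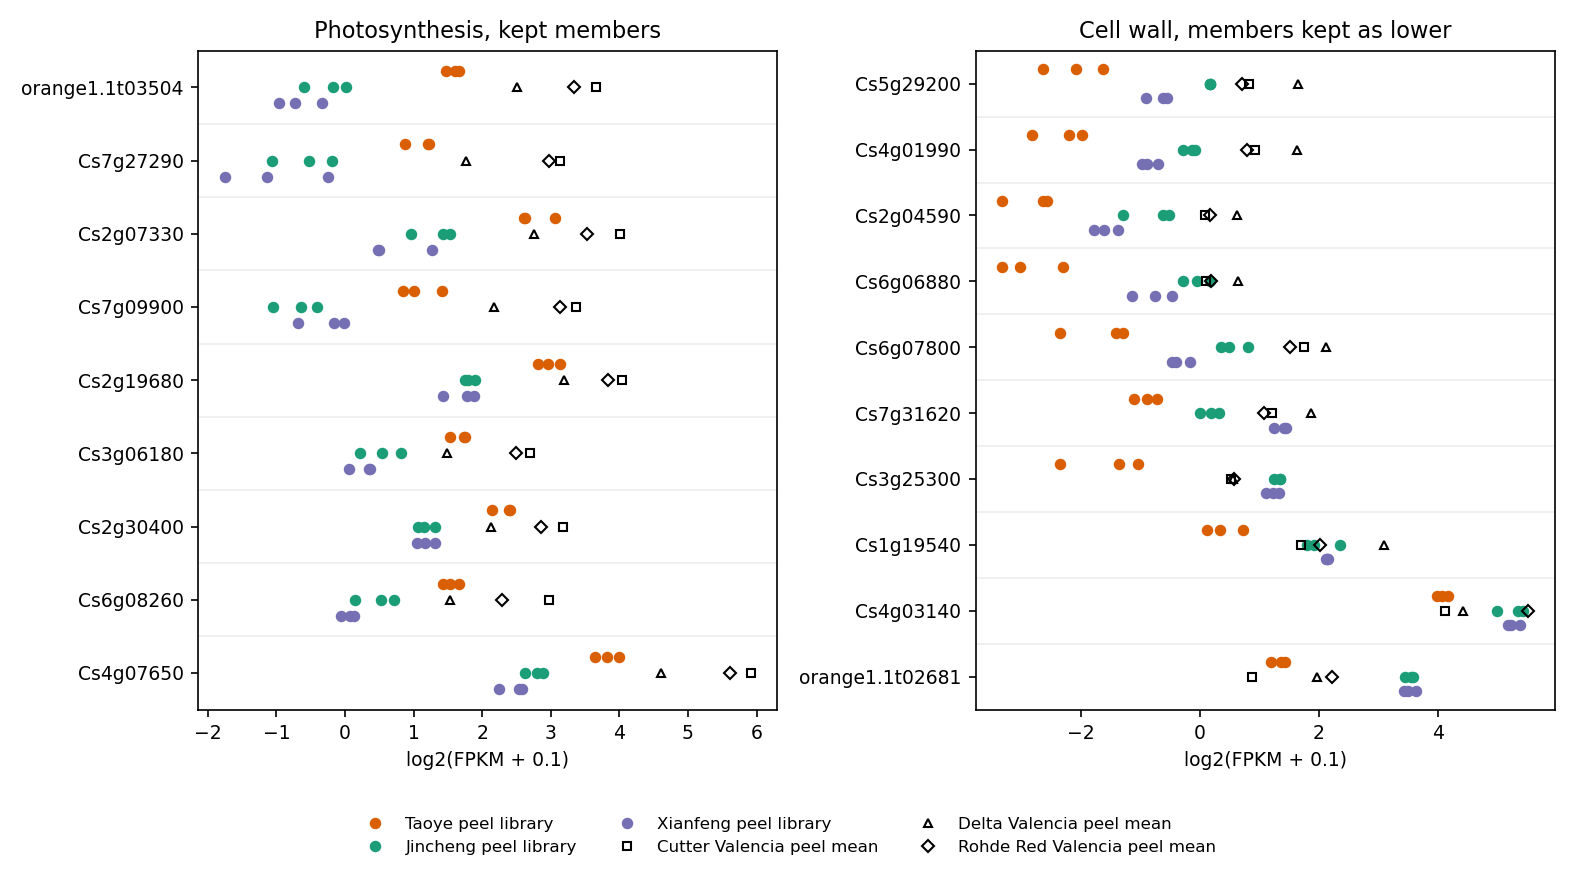
Levels in single libraries are given as log2(FPKM + 0.1) for the 9 kept photosynthesis genes and for 10 genes of wall formation kept as lower. Taoye lies above Jincheng and Xianfeng in the photosynthesis genes and below them in these wall genes, while the 4 peroxidases and 6 other wall genes kept as higher are not plotted.

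Among kept genes for enzymes that remodel the primary wall, most were lower in Taoye. Of 109 other cell wall genes tested, 16 were kept as lower (14.7%, against 1.36% of all genes) and 6 as higher (5.50%, against 1.58%). With a library left out, 11 to 16 were kept as lower and 5 to 7 as higher. With 1 FPKM added in place of 0.1, 7 were kept as lower and 0 as higher. Xyloglucan endotransglucosylase/hydrolases cut and rejoin the xyloglucan chains that tie cellulose fibrils together. Cs4g03140, of this family, had 15.8, 16.7 and 18 FPKM in Taoye, 43.3, 40.7 and 32.0 FPKM in Jincheng and 41.9, 37.8 and 36.3 FPKM in Xianfeng. The neighbouring family members Cs4g03060 and Cs4g03070 were lower too, with 5.36 ± 0.261 FPKM in Taoye, 12.8 ± 2.29 FPKM in Jincheng and 12.8 ± 0.746 FPKM in Xianfeng for Cs4g03060. Cs4g03070 is short, and its levels of 0.601, 0 and 0.229 FPKM in Taoye overlapped neither of the other COs. These 3 genes are of one family, and the division of reads among them is uncertain. The beta-xylosidase/alpha-L-arabinofuranosidase 2 gene orange1.1t02681, whose product trims side chains of xylan and arabinan, had 2.49, 2.61 and 2.19 FPKM in Taoye, 11.9, 10.9 and 11.7 FPKM in Jincheng and 12.4, 11.3 and 10.7 FPKM in Xianfeng. It was lower with log2 fold changes of -2.20 ± 0.08 against Jincheng and -2.20 ± 0.08 against Xianfeng (SE, adjusted p at most 1.0e-08). Expansin-like A1 (Cs8g01880) was the most abundant kept gene of the list, with 95.8, 100.3 and 101 FPKM in Taoye, 234, 224 and 216 FPKM in Jincheng and 203, 202 and 208 FPKM in Xianfeng. Expansins loosen the wall without cutting its polymers. No Taoye library overlapped another CO in these genes. In Cutter Valencia expansin-like A1 was at 97.4 FPKM, near Taoye, and in Rohde Red Valencia at 219 FPKM.

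Disease resistance genes of the NLR type, intracellular receptors that recognize pathogen effectors, were more often higher than lower in Taoye peel. Of 414 tested, 24 were kept as higher (5.8%, against 1.58% of all genes) and 5 as lower (1.21%, against 1.36%). Among the 24, Cs5g02790 is a dirigent-type protein that the words of its description brought into the list. The medians over the list were 0.08 against Jincheng and 0.17 against Xianfeng. The most abundant of the higher genes, orange1.1t02179, had 8.12, 9.04 and 9.71 FPKM in Taoye, 1.77, 1.85 and 1.90 FPKM in Jincheng and 2.02, 1.72 and 2.22 FPKM in Xianfeng. Cs1g08330 had 1.59, 1.60 and 1.66 FPKM in Taoye, 0.0637, 0.111 and 0.0416 FPKM in Jincheng and 0.0202, 0.0753 and 0.0513 FPKM in Xianfeng, with log2 fold changes of 3.34 ± 0.29 against Jincheng and 3.54 ± 0.29 against Xianfeng (SE, adjusted p at most 9.0e-06). Cs4g07730, which resembles RPP13, had 1.76, 1.70 and 1.65 FPKM in Taoye, 0.0375, 0.0954 and 0 FPKM in Jincheng and 0.107, 0.0127 and 0.109 FPKM in Xianfeng. All 24 had their Taoye libraries above the other 6, as had 278 of the 279 kept higher genes, all chosen on these libraries. In VO peel Cs4g07730 was at 1.98 ± 0.243 FPKM in Cutter Valencia, 1.97 ± 0.119 FPKM in Delta Valencia and 2.05 ± 0.102 FPKM in Rohde Red Valencia, while Cs1g08330 had means of at most 0.144 FPKM. Of the 24 genes, 12 were called higher against all 5 other varieties, as were 49.5% of all kept higher genes. Among the lower genes Cs1g07160 had 3.37, 3.61 and 3.48 FPKM in Taoye, 7.88, 8.08 and 8.75 FPKM in Jincheng and 7.84, 7.89 and 8.54 FPKM in Xianfeng. NLR genes form families of similar copies, so the levels of single members are uncertain.

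The difference in NLR genes was also seen in pulp libraries, which the rule did not use. In pulp 20 of the 24 were tested, and 15 of them were kept as higher and none as lower in Taoye by limma (17 higher and 0 lower at an unadjusted p under 0.05). Over the whole list 41 of 331 NLR genes tested in both tissues were kept in pulp as higher and 5 as lower, against 1.56% and 1.52% of the 16070 genes tested in both. Next to each other on chromosome 7 stood a pair related to NPR1, the salicylic acid receptor of Arabidopsis. Cs7g18660, like NPR2, had 0.0560, 0.184 and 0.0640 FPKM in Taoye, 0.851, 0.841 and 0.771 FPKM in Jincheng and 1.14, 0.669 and 0.822 FPKM in Xianfeng. Cs7g18670, like NPR4, had 1.01, 0.740 and 0.699 FPKM in Taoye, 0, 0.0199 and 0 FPKM in Jincheng and 0, 0 and 0 FPKM in Xianfeng. The pair moved in opposite directions. VO peel resembled Jincheng and Xianfeng in Cs7g18670, with at most 0.0127 FPKM. For Cs7g18660 it lay above the means of all COs, with 1.73 ± 0.0799 FPKM in Cutter Valencia, 2.43 ± 0.400 FPKM in Delta Valencia and 1.89 ± 0.315 FPKM in Rohde Red Valencia. The 2 genes are paralogs, so the split of reads between them is uncertain.

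Pathogenesis-related (PR) proteins and protease inhibitors, made in defence and in ripening fruit, differed in both directions. Of 94 tested, 9 were kept as higher (9.57%, against 1.58% of all genes) and 7 as lower (7.45%, against 1.36%). The medians of the list were -0.02 and 0.04. The PR-4 protein Cs8g13740, which binds chitin, had 43.2, 43.6 and 44.2 FPKM in Taoye, 12.3, 9.98 and 10.1 FPKM in Jincheng and 9.27, 9.80 and 7.89 FPKM in Xianfeng. It was higher with log2 fold changes of 2.02 ± 0.09 against Jincheng and 2.27 ± 0.09 against Xianfeng (SE, adjusted p at most 4.9e-08). Cs9g03630 and Cs9g03610 are PR-10 proteins related to the apricot allergen Pru ar 1. The first was the most abundant of the list's higher genes, with 142, 127 and 146 FPKM in Taoye, 69.3, 65.8 and 65.7 FPKM in Jincheng and 73.1, 59.7 and 57.3 FPKM in Xianfeng. The second had 21.3, 16.3 and 21.3 FPKM in Taoye, 3.0, 3.52 and 3.20 FPKM in Jincheng and 1.1, 1.76 and 1.48 FPKM in Xianfeng. The Taoye libraries lay above all others in the 3 genes. Chitinase 4 (orange1.1t03118), which splits chitin of fungal walls, was higher at 1.07 ± 0.371 FPKM in Taoye, 0.101 ± 0.0439 FPKM in Jincheng and 0.162 ± 0.0912 FPKM in Xianfeng. The acidic endochitinase Cs9g14710, named after its values were seen, had 17.8 ± 2.94 FPKM in Taoye, 6.20 ± 0.431 FPKM in Jincheng and 7.25 ± 1.53 FPKM in Xianfeng. Of the 9 higher genes, 8 were called higher against all 5 other varieties, as were 49.5% of all kept higher genes. Lower in Taoye was the abundant glucan endo-1,3-beta-glucosidase 12 gene Cs4g09780, whose family acts on callose and fungal walls, with 38.2, 36 and 34.8 FPKM in Taoye, 83.8, 82.6 and 82.1 FPKM in Jincheng and 119.8, 125 and 119.6 FPKM in Xianfeng.

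In pulp the higher PR genes did not repeat the pattern. Of 6 tested there, none was kept as higher and 3 were kept as lower in Taoye by limma (0 higher and 4 lower at an unadjusted p under 0.05). In pulp PR-4 was at 0.457 ± 0.322 FPKM in Taoye, 26.8 ± 1.72 FPKM in Jincheng and 0.845 ± 0.114 FPKM in Xianfeng, so that Jincheng alone was high. The endochitinase Cs9g14710 was there at 2.29 ± 0.593 FPKM in Taoye, 119 ± 5.73 FPKM in Jincheng and 15.4 ± 0.461 FPKM in Xianfeng. Over the list 3 of the 68 members tested in both tissues were kept in pulp as higher and 12 as lower, against 1.56% and 1.52% of all genes tested in both. The polygalacturonase inhibitor gene Cs7g18970, whose product blocks fungal pectin-degrading enzymes, was among the most abundant kept genes. Its peel levels were 109.7, 106 and 111 FPKM in Taoye, 237, 240.5 and 245 FPKM in Jincheng and 292, 278 and 287 FPKM in Xianfeng. In pulp it was lower in Taoye as well, at 166 ± 1.33 FPKM in Taoye, 362 ± 2.58 FPKM in Jincheng and 349.5 ± 14.4 FPKM in Xianfeng. Snakin-1 (Cs8g04550), related to an antimicrobial peptide of potato, had 26.6, 21.2 and 27.5 FPKM in Taoye, 55.8, 51.4 and 45.0 FPKM in Jincheng and 46.0, 47.0 and 61.3 FPKM in Xianfeng, with log2 fold changes of -1.02 ± 0.13 and -1.03 ± 0.13 (SE), and was not past the 2-fold limit against Jincheng without Jincheng library 1 (-0.95), nor against either without Taoye library 2 (-0.90 and -0.91), nor against Xianfeng without Xianfeng library 3 (-0.90).

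Some transcription factors of the ERF, WRKY and MYB families were higher in Taoye peel, while limma kept no NAC gene (56 tested) or MADS-box gene (30 tested). Of 65 ERF and DREB genes tested, 5 were kept as higher (7.69%, against 1.58% of all genes) and 1 as lower (1.54%, against 1.36%). Their medians were 0.02 and -0.001, and 3 were kept as higher without Taoye library 1 or Xianfeng library 2. ERF1B (Cs9g10650), which joins ethylene and jasmonate responses in Arabidopsis, had 4.24, 4.89 and 4.85 FPKM in Taoye, 0.510, 0.728 and 0.873 FPKM in Jincheng and 0.969, 0.838 and 1.48 FPKM in Xianfeng, with log2 fold changes of 2.59 ± 0.22 against Jincheng and 2.03 ± 0.22 against Xianfeng (SE, adjusted p at most 4.4e-05). DREB1B-like (Cs5g10240), a regulator of cold responses in Arabidopsis, had 9.11, 8.02 and 6.64 FPKM in Taoye, 1.16, 1.22 and 1.85 FPKM in Jincheng and 3.02, 3.21 and 3.72 FPKM in Xianfeng. In both genes the Taoye libraries lay above all others, and in DREB1B-like the Xianfeng libraries lay above those of Jincheng. The lower gene ERF021-like (Cs5g19590) had 17.8, 17.1 and 18.7 FPKM in Taoye, 43.7, 41.4 and 37.4 FPKM in Jincheng and 39.8, 51.4 and 47.0 FPKM in Xianfeng. All 3 WRKY genes kept (of 42 tested, 7.14%, against 1.58% of all genes) were higher and below 1 FPKM. Without Taoye library 2 a single WRKY gene was kept, and with 1 FPKM added before the logarithm 0 were kept, with 2 ERF and DREB genes higher. Both MYB genes kept, of 37 tested (5.41%, against 1.58% of all genes), were higher, and 1 was kept without Xianfeng library 3. The MYB gene Cs9g10480 (Myb4-like) had 13.0, 12.9 and 12.9 FPKM in Taoye, 5.10, 4.44 and 4.92 FPKM in Jincheng and 6.76, 6.22 and 5.24 FPKM in Xianfeng, and its log2 fold change of 1.09 ± 0.09 (SE) against Xianfeng was 0.99 without Xianfeng library 3. MYB59 (Cs8g17920) gave 6.43 ± 0.533 FPKM in Taoye, 2.93 ± 0.455 FPKM in Jincheng and 2.65 ± 0.372 FPKM in Xianfeng, with levels in Cutter Valencia (7.24 FPKM) and Delta Valencia (6.94 FPKM) close to Taoye. ATHB-12-like (orange1.1t02547), a homeodomain factor of drought and abscisic acid responses in Arabidopsis, had 36.4, 38.2 and 34.7 FPKM in Taoye, 13.1, 14.6 and 14.2 FPKM in Jincheng and 14.1, 14.0 and 15.3 FPKM in Xianfeng, and VO peel stayed at 5.25 ± 0.745 FPKM in Cutter Valencia, 5.4 ± 0.320 FPKM in Delta Valencia and 3.81 ± 0.489 FPKM in Rohde Red Valencia. Of the CONSTANS-like genes, B-box factors of light and day-length responses, Cs2g14170 was higher and Cs5g15940 lower in Taoye. Cs2g14170 was at 3.20 ± 0.0905 FPKM in Taoye, 0.612 ± 0.239 FPKM in Jincheng and 1.49 ± 0.0669 FPKM in Xianfeng. Cs5g15940 was at 2.34 ± 0.279 FPKM in Taoye, 5.8 ± 0.360 FPKM in Jincheng and 5.19 ± 0.327 FPKM in Xianfeng.

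In terpene formation, 3 of 25 genes tested were kept as higher (12%, against 1.58% of all genes) by limma or limma voom. None was kept as lower by either, with 4 higher and 5 lower at an unadjusted p under 0.05. Gamma-terpinene synthase makes a monoterpene of citrus peel oil. Its gene Cs8g14120 had 10.2, 9.65 and 9.11 FPKM in Taoye, 1.79, 2.26 and 1.87 FPKM in Jincheng and 4.46, 4.07 and 5.36 FPKM in Xianfeng, so that Xianfeng lay between the others. The difference from Xianfeng was 1.05 ± 0.11 (SE) on the log2 scale, close to the limit, and 0.96 without Xianfeng library 2. A second, short gene of this enzyme, Cs7g18500, had 3.55, 1.26 and 2.10 FPKM in Taoye, 0, 0 and 0 FPKM in Jincheng and 0.491, 0.131 and 0.249 FPKM in Xianfeng. The Taoye libraries of Cs7g18500 varied widely and lay above the rest. The list as a whole had medians of -0.22 and -0.04. As these genes resemble each other, reads may be shared among them.

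Of 69 flavonoid genes tested, 5 were kept as lower (7.25%, against 1.36% of all genes) and 2 as higher (2.90%, against 1.58%). Without Xianfeng library 3, 4 were kept as higher. The medians were -0.29 and -0.17. A pair of genes like isoflavone 4'-O-methyltransferase, an enzyme that adds a methyl group to a flavonoid ring in legumes, led the lower genes. Cs2g05400 had 7.68, 6.64 and 8.01 FPKM in Taoye, 50.7, 54.1 and 52.2 FPKM in Jincheng and 37.1, 37.8 and 38 FPKM in Xianfeng, with log2 fold changes of -2.80 ± 0.06 against Jincheng and -2.33 ± 0.06 against Xianfeng (SE, adjusted p at most 9.6e-10). Cs2g05430 had 0.409, 0.112 and 0.195 FPKM in Taoye, 2.22, 2.60 and 3.79 FPKM in Jincheng and 1.86, 1.98 and 1.70 FPKM in Xianfeng. Both were below all other CO and all VO varieties, with VO peel at 60.3 ± 1.84 FPKM in Cutter Valencia, 46.2 ± 3.43 FPKM in Delta Valencia and 96.8 ± 4.68 FPKM in Rohde Red Valencia for Cs2g05400, and the split of reads between such copies is uncertain. An isoflavone reductase-like gene (Cs3g25010) was at 6.72 ± 0.661 FPKM in Taoye, 14.0 ± 1.47 FPKM in Jincheng and 26.5 ± 0.643 FPKM in Xianfeng, and its log2 fold change against Jincheng was -0.96 without Jincheng library 2 and -0.98 without Taoye library 3. Of 23 phenylpropanoid and lignin genes that the study had listed, and chosen on these samples, 1 was lower and 1 was higher in Taoye (4.35% each, against 1.36% and 1.58% of all genes). At an unadjusted p under 0.05 with no fold limit 10 were lower and 2 higher, and the medians were -0.17 and -0.12. Phenylalanine ammonia-lyase (Cs7g24940), the entry enzyme of the pathway, had 7.81, 7.70 and 7.03 FPKM in Taoye, 24.3, 24.6 and 24.3 FPKM in Jincheng and 15.7, 15.5 and 14.4 FPKM in Xianfeng. Its log2 fold changes of -1.69 ± 0.05 and -1.01 ± 0.05 (SE) were near the limit, with -0.96 against Xianfeng without Taoye library 3, -0.98 without Xianfeng library 1 and -0.99 without Xianfeng library 2. The caffeoyl-CoA O-methyltransferase-like gene Cs6g04150, of a family that methylates lignin precursors, had 2.40, 2.26 and 1.83 FPKM in Taoye, 0.712, 0.750 and 0.477 FPKM in Jincheng and 0.641, 0.531 and 0.652 FPKM in Xianfeng. In pulp the ammonia-lyase differed the other way, at 3.85 ± 1.18 FPKM in Taoye, 1.5 ± 0.0772 FPKM in Jincheng and 1.20 ± 0.221 FPKM in Xianfeng. Of 122 cytochrome P450 genes tested, 3 were kept as higher (2.46%) and 2 as lower (1.64%), near the 1.58% and 1.36% of all genes, and 1 was kept as lower without Jincheng library 1 or Taoye library 1. P450 71B35-like (Cs7g10570) was at 12.1 ± 1.51 FPKM in Taoye, 5.68 ± 0.997 FPKM in Jincheng and 5.00 ± 0.197 FPKM in Xianfeng, with a log2 fold change against Jincheng of 0.99 without Taoye library 2. P450 83B1-like (orange1.1t02796) was at 5.83 ± 1.08 FPKM in Taoye, 1.94 ± 0.393 FPKM in Jincheng and 2.07 ± 0.385 FPKM in Xianfeng.

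Among hormone genes, 3.33% of the ethylene list, 1.19% of the abscisic acid list and 3.45% of the gibberellin and cytokinin list were kept. For all genes the share was 2.94%, and nothing is read from these small counts. Of 30 ethylene genes, 1 was lower and none higher in Taoye by limma or limma voom (2 lower and 7 higher at an unadjusted p under 0.05). This was Cs4g13870, for 1-aminocyclopropane-1-carboxylate oxidase 1, which carries out the last step of ethylene synthesis, with 1.07, 0.890 and 1.49 FPKM in Taoye, 3.26, 3.14 and 2.62 FPKM in Jincheng and 5.12, 7.82 and 7.11 FPKM in Xianfeng. In pulp its difference was larger, at 3.15 ± 0.392 FPKM in Taoye, 96.3 ± 2.86 FPKM in Jincheng and 92.9 ± 0.521 FPKM in Xianfeng. Of 84 abscisic acid genes, 1 was lower and none higher by limma (12 lower and 23 higher at an unadjusted p under 0.05). It is Cs3g23530, a match to abscisic acid 8'-hydroxylase 3, whose product removes the active hormone, and had 0.706, 0.698 and 0.355 FPKM in Taoye, 1.57, 1.90 and 2.41 FPKM in Jincheng and 1.68, 1.71 and 1.65 FPKM in Xianfeng. The other COs and, with 5.83 ± 0.513 FPKM in Cutter Valencia, 8.37 ± 0.364 FPKM in Delta Valencia and 6.42 ± 0.438 FPKM in Rohde Red Valencia, VO peel lay above Taoye. Gibberellin-regulated protein 11 (Cs3g26090), of the GASA family of small cysteine-rich proteins, had 2.05, 2.36 and 1.99 FPKM in Taoye, 9.35, 8.97 and 7.35 FPKM in Jincheng and 11.9, 10.1 and 12.5 FPKM in Xianfeng. It was lower with log2 fold changes of -1.95 ± 0.11 against Jincheng and -2.37 ± 0.11 against Xianfeng (SE, adjusted p at most 3.4e-07), and 1 other of the 58 gibberellin and cytokinin genes was higher.

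Transport genes and other abundant genes completed the set. The sulfate transporter 3.1 gene Cs5g30850 had 35.6, 36.6 and 36.3 FPKM in Taoye, 86.8, 85.7 and 84.8 FPKM in Jincheng and 78.5, 79.4 and 79.8 FPKM in Xianfeng, while VO peel was at 10.1 ± 0.585 FPKM in Cutter Valencia, 8.05 ± 0.536 FPKM in Delta Valencia and 7.81 ± 0.0657 FPKM in Rohde Red Valencia, below all COs. The aluminum-activated malate transporter 9-like gene Cs5g02830 resembles a malate and chloride channel of the vacuole in Arabidopsis. It had 0.855, 0.916 and 0.916 FPKM in Taoye, 4.71, 4.34 and 4.26 FPKM in Jincheng and 4.48, 4.97 and 4.78 FPKM in Xianfeng, with log2 fold changes of -2.19 ± 0.09 against Jincheng and -2.28 ± 0.09 against Xianfeng (SE, adjusted p at most 2.9e-08). It was 1 of 2 lower genes among 72 of organic acid metabolism and proton pumps (2.78%, against 1.36% of all genes). Without Jincheng library 1, Xianfeng library 2 or Xianfeng library 3, 1 gene of this list was lower. In pulp Cs5g02830 was at 0.344 ± 0.271 FPKM in Taoye, 0.879 ± 0.172 FPKM in Jincheng and 4.20 ± 0.502 FPKM in Xianfeng. A heavy metal-associated protein gene (orange1.1t00956) was higher, with 119.6, 128 and 120.3 FPKM in Taoye, 60.7, 57.8 and 58.7 FPKM in Jincheng and 58.7, 60.2 and 63.8 FPKM in Xianfeng. The libraries did not overlap, but its log2 fold changes of 1.05 ± 0.04 and 1.01 ± 0.04 (SE) were near the limit, and against Xianfeng it was 0.98 without Taoye library 2 or Xianfeng library 1 and 0.99 under median-ratio scaling.

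Lipid transfer proteins carry lipids to the surface layers. Of 19 tested, 1 was kept as higher and 1 as lower (5.26% each, against 1.58% and 1.36% of all genes). Cs6g09960 had the highest level of all kept genes, with 411, 401 and 408 FPKM in Taoye, 111, 109 and 116 FPKM in Jincheng and 194, 187 and 179 FPKM in Xianfeng. It gave log2 fold changes of 1.86 ± 0.03 against Jincheng and 1.13 ± 0.03 against Xianfeng (SE, adjusted p at most 2.4e-09). VO peel stayed far below, at 5.55 ± 1.41 FPKM in Cutter Valencia, 51.5 ± 1.82 FPKM in Delta Valencia and 1.68 ± 0.345 FPKM in Rohde Red Valencia. Lipid-transfer protein 4 (orange1.1t01623) showed the reverse, with 3.08, 2.22 and 1.36 FPKM in Taoye, 28.5, 28.6 and 23.1 FPKM in Jincheng and 7.04, 9.40 and 6.31 FPKM in Xianfeng and with 78.7 ± 5.48 FPKM in Cutter Valencia, 124 ± 15.6 FPKM in Delta Valencia and 92.9 ± 1.74 FPKM in Rohde Red Valencia in VO peel. In pulp this gene was higher in Taoye, at 6.05 ± 3.51 FPKM in Taoye, 0.966 ± 0.577 FPKM in Jincheng and 0.133 ± 0.116 FPKM in Xianfeng.

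Of the 34 gene lists examined, 13 had no kept member in either direction by limma. They held 643 tested genes, of which 230 differed from both varieties in a single direction at an unadjusted p under 0.05 with no fold limit, and limma voom kept 5 of them. For all genes, 2424 were higher and 2486 lower by that looser count. The carotenoid and plastid isoprenoid list (50 tested) had 7 higher and 7 lower by it and medians of -0.02 and 0.04. Chlorophyll synthesis and breakdown (31 tested) had 12 higher and 3 lower, with medians of 0.16 and 0.23. Lipoxygenase and jasmonate genes (26 tested) had 13 higher and 2 lower, with medians of 0.34 and 0.15. Heat shock genes (68 tested) had 8 higher and 24 lower, with medians of -0.16 and -0.07. Pectin hydrolysis genes that the study had listed (25 tested) had 2 higher and 9 lower, with medians of -0.36 and -0.41. Over the 13 lists, 3 of the 230 genes were past 2-fold against both varieties, and 568 were among all genes of the looser count. As these are the lists without a kept member, the low number follows from that choice and nothing is read from it. The other lists without a kept member were those of sugar and starch metabolism, sugar transporters, auxin, NAC and MADS-box factors, aquaporins, histones and cell cycle, and retrotransposons. Cutin and wax genes (52 tested) and UDP-glycosyltransferases (57 tested) had 1 lower gene each (1.92% and 1.75%, near the 1.36% of all genes) and none higher by limma. Without Jincheng library 1 the former had 2 lower genes, and without Taoye library 3 the latter had 2, and 0 without Jincheng library 3 or Xianfeng library 2. At an unadjusted p under 0.05, the former had 11 lower and 2 higher and the latter 11 lower and 8 higher. The list of late embryogenesis abundant and cold-regulated proteins (19 tested) had 1 higher (5.26%, against 1.58% of all genes) and none lower by limma. Without Taoye library 2 it had 0 higher, and at an unadjusted p under 0.05 it had 6 higher and 1 lower.

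**Figure D4:**
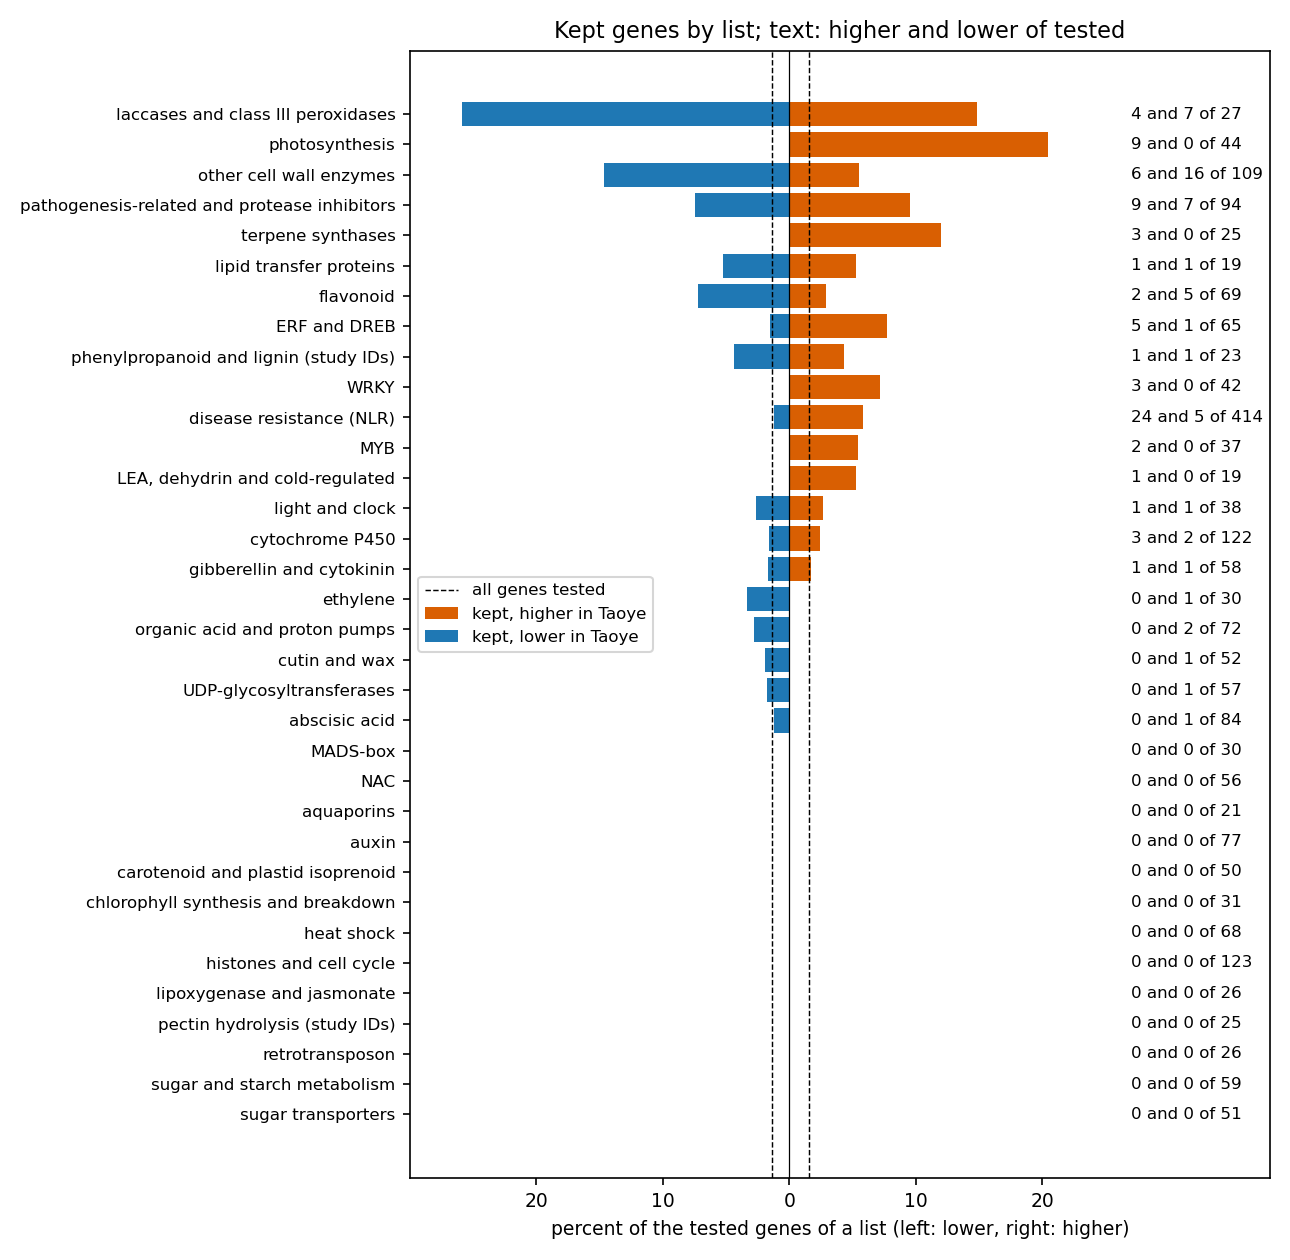
Bars give the percent of the tested genes of each list that were kept as higher (right) or lower (left) in Taoye peel, with counts beside them, and the share among all 17708 genes for reference. Laccases and peroxidases, photosynthesis genes and other wall genes had the largest shares.

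The same varieties were compared in pulp, in libraries that the rule did not use. There 561 of 16489 genes tested were kept (3.4%), 268 higher (1.63%) and 293 lower (1.78%) in Taoye. Of the 279 genes higher in peel, 189 were tested in pulp, and 82 of these (43.4%) were kept as higher there against 1.56% of all genes tested in both tissues, and 6 as lower. Of the 241 genes lower in peel, 170 were tested in pulp, and 76 (44.7%) were kept as lower there against 1.52%, and 3 as higher. Peel and pulp came from fruits of the same trees, so the tissues do not give independent samples of the variety. Of the 25 genes at the floor in Taoye peel, 19 were also kept as lower in pulp, and of the 12 at the floor in Jincheng and Xianfeng peel, 7 were kept as higher there. In pulp Cs9g17790 was at 10.9 ± 0.765 FPKM in Taoye, 0 FPKM in Jincheng and 0.102 ± 0.0885 FPKM in Xianfeng, and Cs6g06760 at 0.0554 ± 0.0263 FPKM in Taoye, 12.9 ± 0.313 FPKM in Jincheng and 12.6 ± 0.295 FPKM in Xianfeng. A difference unlike between the tissues, tested as an interaction, was found for 125 of the higher genes and 89 of the lower genes, and for 15.3% of all genes. As the genes were chosen for their difference in the same peel libraries, nothing is read from these counts against that share.

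**Figure D5:**
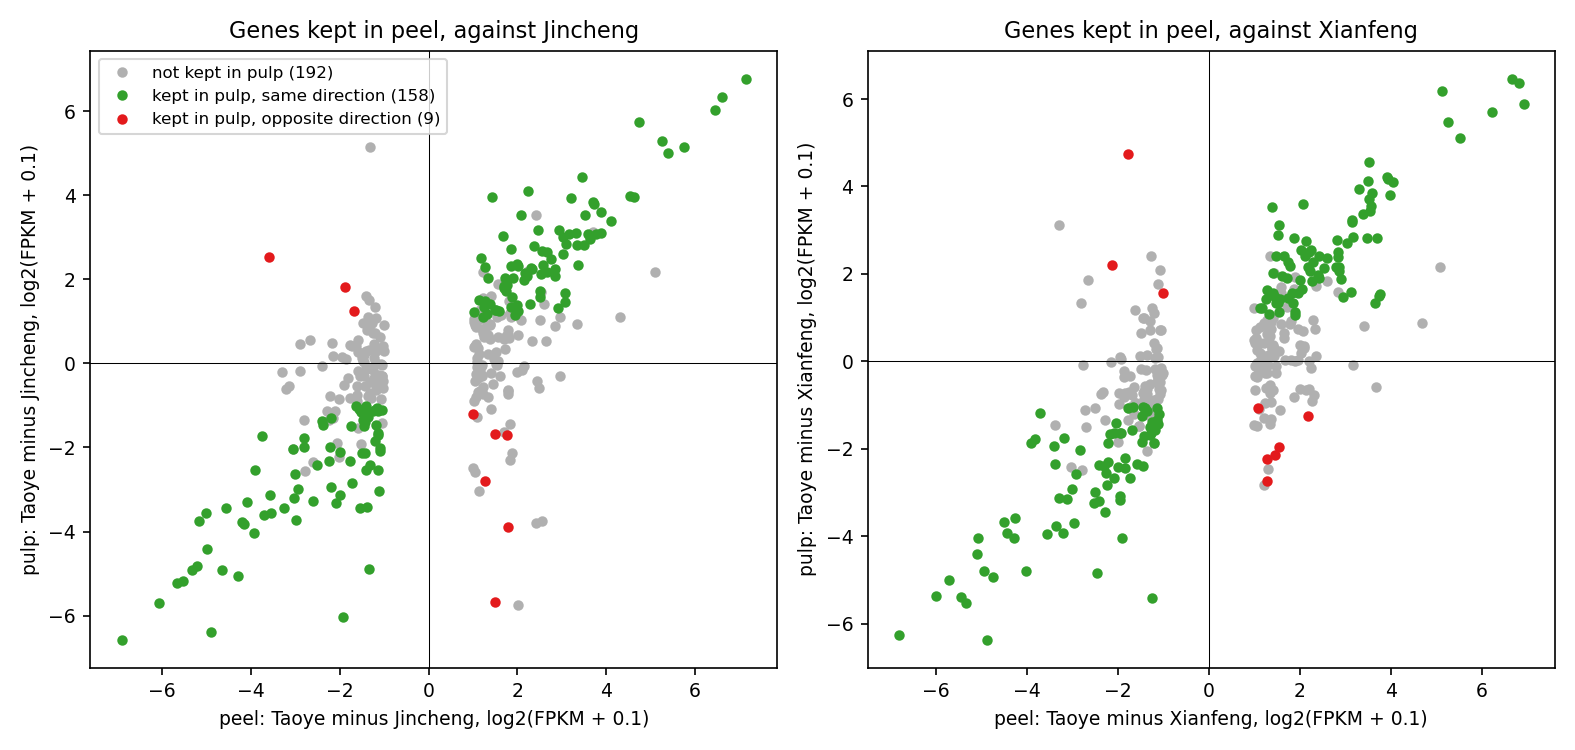
Log2 fold changes of Taoye in pulp (y axis) are plotted against those in peel (x axis) for the kept genes tested in both tissues, against Jincheng and against Xianfeng. Of these genes, 158 were kept in pulp in the same direction, 9 in the opposite direction and 192 were not kept in pulp.

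Set beside all 5 other varieties, Taoye peel stood alone in about equal parts of the higher and lower genes. Each contrast was called with the same sign for 275 of 18375 genes (1.5%), 143 higher (0.778%) and 132 lower (0.718%). Among the kept genes 138 of the 279 higher and 119 of the 241 lower were of this kind. Cs9g09220, Cs1g02260, PR-4 (Cs8g13740) and ATHB-12-like (orange1.1t02547) were among the higher genes. Cs7g15150, Cs6g06760, the 3 kept cellulose synthase genes and the laccases Cs6g06880 and Cs6g07800 were among the lower. The 9 photosynthesis genes and the 4 genes of the run with the ESD4 matches were not, since at least 1 VO variety was not called as different from Taoye in that direction. Fruits of VO were less mature at harvest, so that variety group and maturity changed together in this comparison.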

How the data were processed

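RNA was sequenced from peel and pulp of 6 sweet orange varieties, in 36 libraries. The 9 peel libraries of Taoye, Jincheng and Xianfeng were compared. Per the labels and the submitters' processing notes, poly(A) RNA was made into libraries with a kit that is not stated to mark strand, reads were aligned with TopHat2 and expression was estimated with RSEM, and the authors ran DESeq (version 1.10.1). The genome build was not given in the sources used here. The deposited table gives 29654 genes in FPKM as the authors made them, with a gene length and a description for 27872 of them. Multiplied by the length, all values of a library were whole numbers of 1 smallest unit, to within 0.02 fragments, and so gave its mapped fragments (15.5 M to 17.7 M in CO peel). Intervals and floors of 3 fragments cover counting error only. Reads from overlapping or antisense genes could not be told apart.

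Genes whose mean reached 0.3 FPKM in 1 variety or more were tested on log2(FPKM + 0.1) with limma 3.58.1 (R 4.3.3), allowing for a trend of the variance with the mean, without covariates and with Benjamini-Hochberg adjustment over all genes tested. Calls needed an adjusted p below 0.05 and a log2 fold change of 1 or more in size. Pulp, all 5 other varieties and the difference between tissues were fitted in the same way, the last called at the adjusted p alone. Count models were not used because the deposited unit is FPKM, and limma voom on the recovered fragments served as an alternative. Genes to name were, among kept genes with at least 1 FPKM in the higher group, the 12 largest rises and falls, the 6 most abundant in each direction, up to 4 per list, genes at the floor and runs of neighbours. These gave 133 genes, of which 70 are described, and 10 more were chosen after their values were seen. Genes that were not kept are given for comparison and are outside these counts. Lists came from words in the descriptions or from the study. The members and lists were chosen with earlier results of these data known. Alternatives changed the pseudocount (0.01 and 1 FPKM), the filter and the fold limit, and tried other scalings, libraries and tests and a replicate block. The method was tested on simulated data. Tables and plots were made with Python 3.11.15, pandas 2.3.3 and matplotlib 3.10.9.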

Additional observations from a re-analysis of the deposited data

Results flagged for a closer look

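For 38 of the 80 genes described, the difference of Taoye was unlike in peel and pulp by limma's interaction test, against Jincheng and against Xianfeng, with adjusted p-values of at most 0.025. The share among all 18127 genes tested in this way was 15.3%, but the genes described were chosen for large differences in the same peel libraries, so nothing is read from that comparison. The value given for each gene is the smaller of its 2 peel-minus-pulp differences on the log2 scale, and it was positive in 21 genes and negative in 17. Some of the genes were near 0 in pulp of all 3 varieties, so that their values restate the difference in peel. Among these were Cs5g34410, Cs4g03070, Cs6g06880, Cs2g05430, Cs7g18500 and orange1.1t03118, with pulp means of at most 0.0535 FPKM in Taoye, Jincheng and Xianfeng.

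Among photosynthesis genes, which were higher in Taoye peel, the values were orange1.1t03504 (2.40), Cs7g27290 (2.81), Cs2g19680 (1.53), Cs4g07650 (1.47), Cs7g09900 (2.44) and Cs2g07330 (1.93). PR and chitinase genes that were higher in Taoye peel gave Cs9g03630 (0.72), Cs8g13740 (3.18), Cs9g03610 (4.27), orange1.1t03118 (2.18) and Cs9g14710 (4.02). The higher regulators were Cs9g10480 (1.84), Cs8g17920 (1.12) and orange1.1t02547 (0.79), and the higher terpene and P450 genes were Cs7g18500 (2.21), Cs7g10570 (1.52) and orange1.1t02796 (1.83).

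Among genes that were lower in Taoye peel, the secondary wall, peroxidase and phloem genes gave Cs2g04590 (-1.58), Cs6g06880 (-2.20), Cs6g07800 (-1.96), Cs3g07110 (-1.17) and Cs3g25300 (-3.36). Genes that remodel the primary wall gave Cs4g03070 (-2.48), orange1.1t02681 (-2.20) and Cs8g01880 (-1.76). The methyltransferase genes and phenylalanine ammonia-lyase gave Cs2g05400 (-1.44), Cs2g05430 (-2.40) and Cs7g24940 (-2.58). Others of this sign were Cs7g02640 (-2.02), Cs5g34410 (-3.30), Cs4g09780 (-0.55), Cs5g15940 (-0.81), Cs3g26090 (-1.62) and orange1.1t01623 (-6.12).

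A further 4 genes were lower in Taoye in both tissues but by more in pulp, and their values were positive. These were Cs6g06760 (1.5), Cs1g07160 (0.64), Cs4g03740 (0.93) and Cs4g13870 (2.40). For Cs4g13870, the oxidase of ethylene synthesis, pulp levels were 3.15 FPKM in Taoye, 96.3 FPKM in Jincheng and 92.9 FPKM in Xianfeng. For Cs9g14710, the acidic endochitinase, the direction turned, with 2.29 FPKM in Taoye pulp, 119 FPKM in Jincheng pulp and 15.4 FPKM in Xianfeng pulp. With 3 libraries per group, single libraries were not tested for lying far from the others.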

How the results depend on the processing

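The count of 520 kept genes depended most on the pseudocount and on the fold limit. With 1 FPKM added before the logarithm, 177 genes were kept, 96 higher and 81 lower, all among the 520, and the counts were 298 against Jincheng, 299 against Xianfeng, 69 between Jincheng and Xianfeng, 189 kept in pulp and 80 against all 5 varieties. With the adjusted p alone, 3676 genes were kept, 1824 higher and 1852 lower, and the counts in the same order were 5693, 5414, 2211, 3467 and 1575. Testing only genes with at least 1 FPKM in a variety kept 354, 189 higher and 165 lower, and gave 590 against Jincheng and 586 against Xianfeng, with 15142 genes tested in place of 17708. With 0.01 FPKM added, 545 were kept and 47.7% of them were higher, against 53.7%. Scaling by median ratio or upper quartile, no filter, a fit of all 18 peel libraries and limma voom kept 519, 517, 574, 540 and 589 genes. Scalings moved the median of all genes by less than 0.1 log2.

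Leaving out a library kept 477 to 510 genes, 255 to 269 higher and 221 to 242 lower, with 846 to 898 called against Jincheng, 833 to 892 against Xianfeng and 235 to 276 between these. Replicate numbers did not pair the libraries, as deviations of same-numbered libraries correlated across 9196 genes with r of -0.05 to 0.08. With the replicate number as a block 513 genes were kept, 276 higher and 237 lower, 506 of them among the 520, and no named gene lost its call. Of 160 differences of named genes, none reversed. Under the pseudocount of 1 FPKM 38 lost the call, under median-ratio scaling 2, under upper-quartile scaling 1, and with a library left out 18 lost it and 1422 did not over all 9 fits. At this depth, levels near the floor of 3 fragments could not be told from 0.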
